A study of Mus musculus with 2 samples.

Results

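The claudins and their partners at cell junctions are described here as they appear in open chromatin of newborn mouse lung. The set comprised 33 genes of the 21938 protein-coding gene models of the GENCODE annotation of mm10, chosen by name. Earlier results of these data were known when it was chosen. It held 21 claudins and 12 other junction genes. For each gene, accessible sites were taken within 500 bp of any annotated transcription start site (TSS) and within 50 kb of the gene.

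DNase-seq, in which DNase I cuts DNA where nucleosomes are displaced, had been run on whole lung of B6NCrl mice at postnatal day 0. The series was 1 group of 2 biological replicates with no treatment and no control group, and the sex of the animals was not collected. The labels give both biosamples the same donor entry and do not say whether they came from different animals or pools, so the spread between them may be partly technical. Replicate 1 lists 2 sequencing instrument models and replicate 2 names none.

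Tight junctions seal the space between neighbouring epithelial or endothelial cells. Their strands are built of claudins, membrane proteins whose extracellular loops meet those of the next cell, and the claudins that a tissue uses set whether the seal is a barrier or a channel for ions and water. Occludin and its relatives join the strands, cytoplasmic scaffolds such as ZO-1 tie them to actin, and adhesion molecules such as E-cadherin hold the cells together beneath them. In the lung this barrier keeps fluid out of the air space, which is cleared of liquid at birth.

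Each library carried its own list of peaks, called separately and not on pooled reads. Replicate 1 listed 276480 peaks and replicate 2 listed 188498. Every peak has a score given by the authors, from 2 to 150 in replicate 1 and from 1 to 148 in replicate 2, with medians of 50 and 43. The sources do not define this score. It was used to rank peaks within a list. Its scale may differ between the lists, so a higher value in replicate 1 is not read as a difference, and the ratio of the 2 scores at a gene is given only beside that ratio at other genes. Peaks of the 2 libraries that overlapped by at least 1 bp formed a shared site, and there were 161051 of these. Sequencing depth was not given, so a missing peak means that none was listed and not that the DNA was closed in every cell. In whole tissue, accessibility in few cells and weaker accessibility in many cells cannot be told apart.

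The lung label was checked against marker genes. A shared promoter site was present at 9 of 9 lung epithelial markers, among them the surfactant genes Sftpa1, Sftpb and Sftpc, at 7 of 7 endothelial markers and at 5 of 5 fibroblast markers, where the share over all protein-coding genes was 68.5%. It was present at 3 of 5 blood markers, 1 of 4 kidney markers, 2 of 4 stomach markers, 1 of 3 liver markers and 1 of 3 oligodendrocyte markers.

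Of the 33 junction genes, 26 (78.8%) had a shared site within 500 bp of a TSS, beside that 68.5% of all protein-coding genes. The claudins divided: 14 of 21 (66.7%) had such a site and 7 did not. All 12 of the other members had one. Promoters rich in CpG dinucleotides are open in most tissues, so the genes were also read within 3 classes of all protein-coding genes, of about equal size, by the CpGs counted 500 bp to either side of the gene model's 5′ end. In the low class (0 to 18 CpGs), 3 of 5 members had a site, where the share over all genes was 27.3%. In the middle class (19 to 60 CpGs) it was 16 of 21 members, with 82.4% over all genes. In the high class (61 to 172 CpGs) it was 7 of 7, with 96.7% over all genes. The claudins and the other members differed in CpG number, with medians of 25 and 61.5. All 12 other members fell in the middle and high classes, where most genes had a site. The 5 low-CpG members were all claudins (Cldn8, Cldn10 and Cldn15 with a site, Cldn17 and Cldn20 without). The Cldn10 sites lay at an internal start with 56 CpGs, and its low-CpG 5′ end had no peak. No test of these shares was made.

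**Figure D1:**
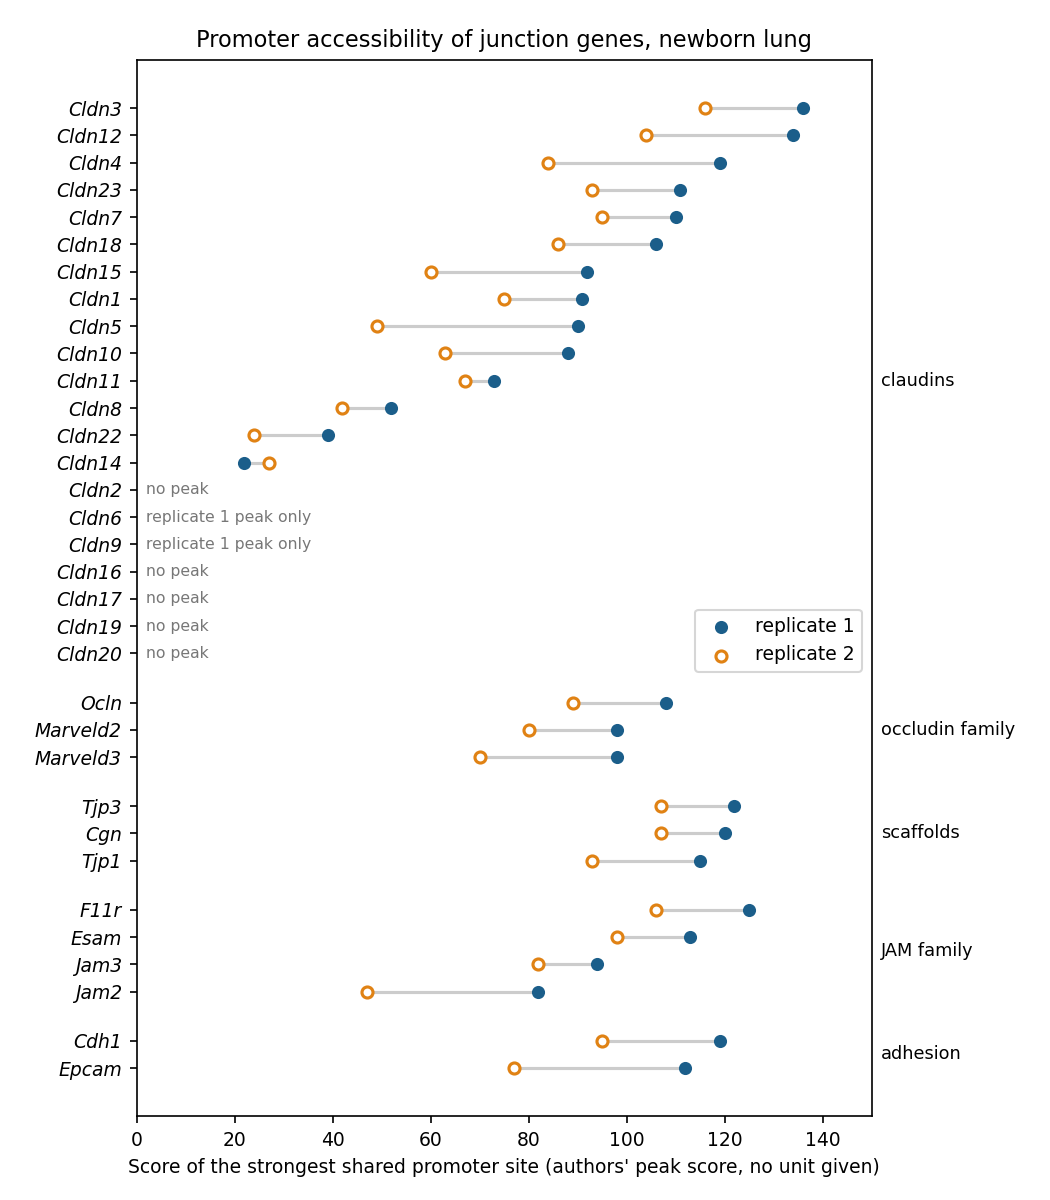
Score of the strongest shared promoter site of each member in replicate 1 (filled) and replicate 2 (open), grouped by role, on the authors' score scale. Scores ran from 136 and 116 at Cldn3 down to 22 and 27 at Cldn14, and 7 claudins had no shared site.

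Among the claudins with an accessible promoter, the median strongest score was 91.5 in replicate 1 and 71 in replicate 2. Over all 26 accessible members it was 107 and 83, below the 121 and 101 of all protein-coding genes with a promoter site. The strongest site of the set was at Cldn3, a barrier claudin of lung and other epithelia. It scored 136 in replicate 1 and 116 in replicate 2, and a neighbouring site closer to the TSS scored 137 and 109. Ranked among all peaks of each library, the strongest Cldn3 site stood at the 98.4 percentile in the mean of both. The median of this mean percentile was 95.8 over all genes with a promoter site and 90.9 over the accessible members. Cldn12, an unusual claudin without the scaffold-binding tail of most others, followed with 134 and 104 (mean percentile 97.2). Cldn4, the neighbour of Cldn3 and also an epithelial barrier claudin, scored 119 and 84. Cldn7, a claudin of the lateral membrane of epithelia, scored 110 and 95, and Cldn23 scored 111 and 93. These 5 genes ranked above the other claudins in both libraries except that Cldn18, with 86 in replicate 2, passed Cldn4 there.

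The strongest Cldn3 site and the Cldn4 site are shown because they are the promoter sites of a pair of epithelial claudins that lie 39.3 kb apart on chromosome 5. Letters in capitals mark matches to any of the 12 motifs searched here. In Cldn3 (chr5:134985796-134985985, plus strand) these are NKX2 (TNAAGTG) and SP/KLF (GGGCGGG), and in Cldn4 (chr5:134946956-134947125, minus strand) AP-1 (TGANTCA), each read on both strands.
Cldn3: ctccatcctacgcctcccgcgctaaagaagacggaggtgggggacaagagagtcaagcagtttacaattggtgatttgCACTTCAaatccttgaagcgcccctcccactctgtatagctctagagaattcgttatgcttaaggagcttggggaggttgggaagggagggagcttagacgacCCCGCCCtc
Cldn4: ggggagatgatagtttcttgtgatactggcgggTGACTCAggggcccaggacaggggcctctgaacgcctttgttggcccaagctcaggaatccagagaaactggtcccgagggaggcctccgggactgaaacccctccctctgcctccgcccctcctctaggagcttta
NKX2-1 is the lung epithelial factor of the NKX2 family. The NKX2 letters occurred in 3.73% of the strongest promoter sites of all genes and the AP-1 letters in 3.1%, so that the matches describe the sequences and do not show binding.

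At Cldn18 and Cldn10, 1 of 2 alternative start regions carried shared sites, and the starts encode different N termini. Claudin-18 is the claudin by which alveolar epithelium is best known, and its gene also makes a stomach isoform from a separate first exon. In the GENCODE models, 2 transcripts start at the 5′ end of the gene and 2 start 7.2 kb further in. The first residues, translated from the annotated start codons, were those of the lung isoform at the internal start and those of the stomach isoform at the 5′ end. At the lung start 2 shared sites were found, with scores of 106 and 86 for the nearer and 94 and 62 for the farther, beside a site of replicate 2 alone (49). Within 500 bp of the stomach start neither library listed a peak. The CpG numbers of both starts were close (26 at the lung start and 25 at the stomach start).

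Claudin-10 is made as 10b, a cation channel found in many tissues, and as 10a, an anion channel known from kidney. The transcript with the N terminus of 10b starts 66.8 kb inside the gene. It had 2 shared sites, with scores of 88 and 63 for the first and 71 and 58 for the other. The upstream start, whose transcripts carry the 10a N terminus, had no peak in either library. Here the starts differed in CpG number, with 56 within 500 bp of the open start and 16 at the start with no peak. Between them lay 9 shared distal sites inside the gene, scoring 53 to 106 in replicate 1 and 32 to 76 in replicate 2. Distal here means a centre more than 1000 bp from any TSS.

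**Figure D2:**
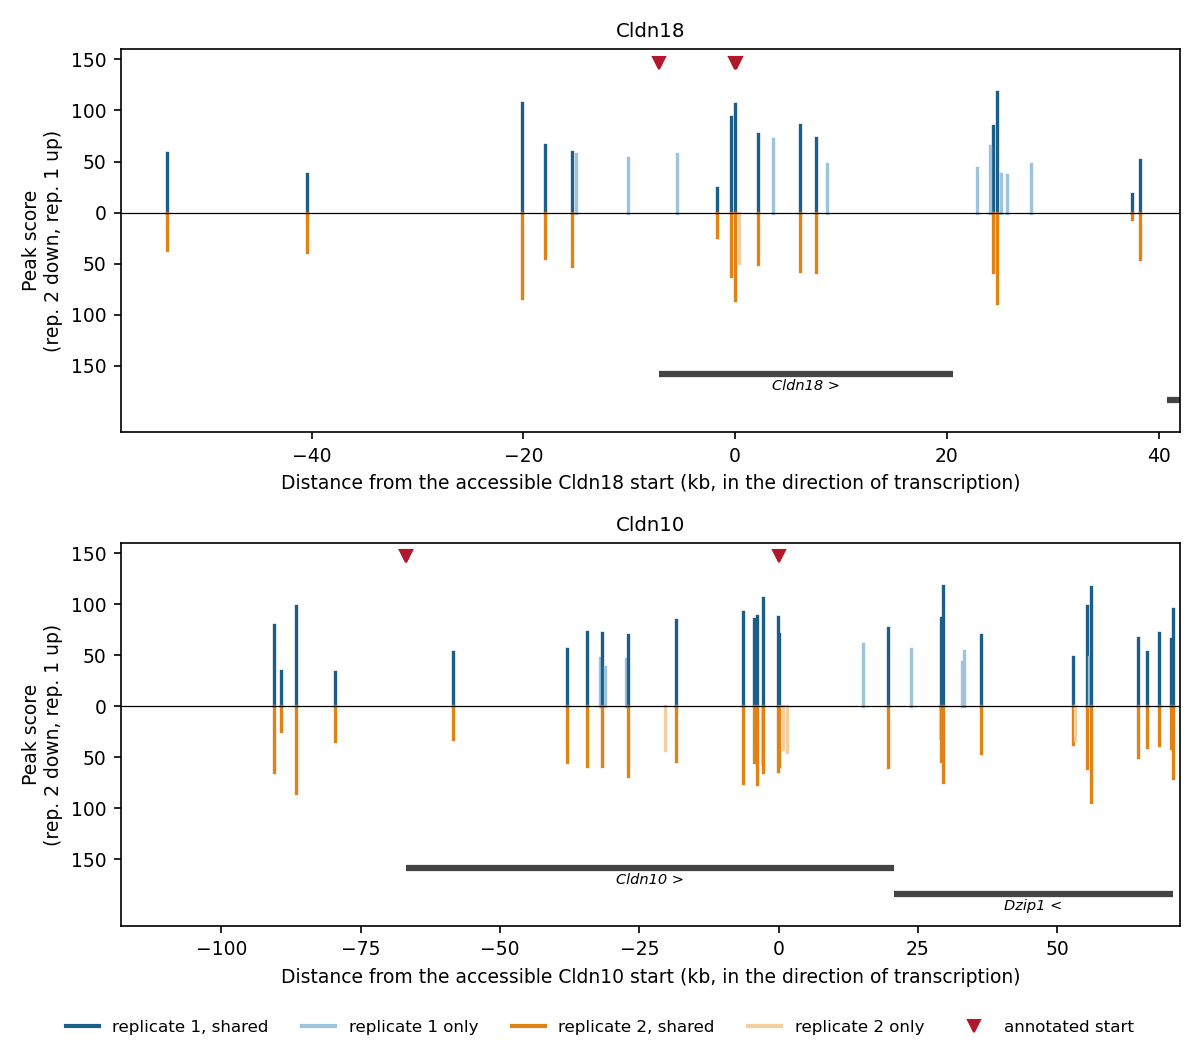
Peak scores (no unit given) around Cldn18 and Cldn10 against distance in kb from the accessible start, replicate 1 upward and replicate 2 downward, pale where only that library listed a peak; triangles mark annotated starts and bars genes. At each gene the upstream triangle has no peak on it, while the start at 0 carries 106 and 86 (Cldn18) and 88 and 63 (Cldn10).

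The DNA upstream of these starts is set side by side below, in mm10, as the part of the accessible site outside exons or as the 150 bp before the start with no peak. The open Cldn18 start (chr9:99710064-99710185, minus strand) held none of the 12 motifs. The Cldn18 start with no peak (chr9:99717268-99717417, minus strand) held 2 copies of AGATAA, the letters of the GATA factors. The open Cldn10 start (chr14:118854536-118854705, plus strand) held AP-1 and C/EBP (TTGCNNAA), and the Cldn10 start with no peak (chr14:118787758-118787907, plus strand) held none.
Cldn18 open: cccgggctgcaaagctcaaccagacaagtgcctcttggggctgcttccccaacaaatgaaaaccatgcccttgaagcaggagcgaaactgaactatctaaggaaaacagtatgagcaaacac
Cldn18 no peak: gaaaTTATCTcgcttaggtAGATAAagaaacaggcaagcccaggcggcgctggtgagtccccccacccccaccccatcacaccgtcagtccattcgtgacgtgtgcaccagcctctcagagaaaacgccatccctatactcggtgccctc
Cldn10 open: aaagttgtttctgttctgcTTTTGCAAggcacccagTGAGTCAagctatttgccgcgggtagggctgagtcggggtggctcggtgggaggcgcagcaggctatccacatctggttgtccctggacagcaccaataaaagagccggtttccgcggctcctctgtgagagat
Cldn10 no peak: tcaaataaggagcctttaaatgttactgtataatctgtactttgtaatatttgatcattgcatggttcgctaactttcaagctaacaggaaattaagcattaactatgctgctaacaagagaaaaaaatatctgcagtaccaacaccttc
AGATAA occurred in 1.76% of the strongest promoter sites of all genes and TTGCNNAA in 3.94%. Both shares are for accessible sites, and none is given here for starts with no peak, such as the Cldn18 start that held AGATAA. A stretch with no match says only that these letters are not in this window.

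Several claudins known from other organs, and the endothelial claudin Cldn5, carried middling or weak promoter sites. Cldn1, the claudin of the epidermal barrier, scored 91 and 75. Cldn15, a cation channel of the intestine, scored 92 and 60, and Cldn11, known from myelin and testis, scored 73 and 67. Cldn5, the main claudin of endothelium, scored 90 in replicate 1 and 49 in replicate 2. These 4 genes stood below the accessible members' medians of 107 and 83 in both libraries. Cldn8, a barrier claudin of the kidney collecting duct, scored 52 and 42. Cldn22 scored 39 and 24 at a site centred 531 bp from its TSS, at the edge of the window. Cldn14, known from the inner ear and kidney, scored 22 and 27 at an internal start 79 kb into the gene. The last 3 values lie near or below the list medians of 50 and 43.

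The 7 claudins with no shared promoter site were of 2 kinds. Cldn2, a channel claudin of leaky epithelia, Cldn16 and Cldn19, the paired claudins of magnesium reabsorption in kidney, Cldn17 and Cldn20 had no peak within 500 bp of any TSS in either library. Cldn6, known from embryonic epithelia, and Cldn9, known from the inner ear, had peaks in replicate 1 alone. Those scores were 51 and 38 at Cldn6 and 41 at Cldn9. Both genes lie side by side, 137 bp apart, and replicate 2 listed no peak within 500 bp of a TSS of either.

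All 3 MARVEL genes, which encode occludin and its relatives, were accessible. Occludin (Ocln) scored 108 in replicate 1 and 89 in replicate 2. Marveld2, whose product tricellulin sits where 3 cells meet, scored 98 and 80, and Marveld3 scored 98 and 70. Ocln was the highest of the 3 in both libraries. Each of these sites was centred 20 bp or less from a TSS.

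All 3 scaffold genes were accessible. Tjp3 (ZO-3) scored 122 and 107, Cgn (cingulin, which links the junction to actomyosin) 120 and 107, and Tjp1 (ZO-1) 115 and 93. The Tjp1 value came from an internal start 157 kb into the gene. The upstream start carried a weak site of 34 in both libraries. The Tjp3 maximum likewise lay at an internal start, 5.8 kb in, while the 5′ start scored 95 and 54.

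Among the immunoglobulin-type adhesion genes, F11r, which encodes JAM-A of epithelia, endothelium and leukocytes, scored 125 and 106. Its site also lies within 500 bp of the TSS of Gm26641, so that the 2 promoters share it. Esam, the endothelial member of this family, scored 113 and 98 at an internal start and 103 and 93 at its 5′ start. Jam3 (JAM-C) scored 94 and 82. Jam2 (JAM-B) scored 82 and 47, the lowest of the 4 in both libraries. No other member shared its strongest promoter site with another gene.

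Of the adhesion genes, Cdh1, which encodes E-cadherin of the epithelial adherens junction, scored 119 and 95 at a site centred 20 bp from its TSS. Epcam, an adhesion molecule of epithelial surfaces, scored 112 and 77 at an internal start and 75 and 50 at its 5′ start. A further Epcam site scored 112 and 75. The hotspot over the Epcam promoter spanned 1757 bp in replicate 1 and 1925 bp in replicate 2.

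Not every annotated start of a gene had a shared site. Neighbouring starts were joined into regions, and 16 members had more than 1 region. All regions carried a shared site at 4 of these genes (Cldn7, Cldn23, Tjp3 and Epcam), some did at 11, and none did at Cldn2. Over the 13162 protein-coding genes with more than 1 region, these shares were 8.68% for all regions, 70.7% for some and 20.7% for none. The 11 were Cldn1, Cldn10, Cldn14, Cldn15, Cldn18, Tjp1, Cdh1, F11r, Jam2, Jam3 and Esam. At Cldn1, Cldn15, Tjp1, Cdh1, F11r, Jam3 and Esam every region without a shared site belonged to non-coding transcripts only, and at Esam 4 of 6 regions carried a site. The non-coding start of Cdh1 and that of Cldn15 had a replicate 1 peak only (52 and 30). Jam2 was open at its 5′ start and not at the coding start 19.4 kb inside, and Cldn14 only at its innermost coding start. In all, 18 of 33 members (54.5%) had at least 2 shared promoter sites, against 40.6% of all protein-coding genes. Both shares count genes with no site. Among genes with a site it was 18 of 26 members and 8901 of 15032 genes, not matched for the number of annotated starts.

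Of the 12 motifs searched in the 150 bp centred on the strongest promoter site, the E-box CAGGTG was in the most members. It is the E-box recognised by the SNAI and ZEB repressors, which are known to act on Cdh1. It was present in 8 of 26 members (30.8%). Over the 15032 genes with a promoter site the share was 7.78%, and it was 9.79%, 8.73% and 6.34% in the low, middle and high CpG classes. The 8 genes were Cldn7, Cldn23, Ocln, Marveld2, Marveld3, Cdh1, Epcam and F11r. All 3 MARVEL genes and both adhesion genes were among them. Cdh1 held 3 copies, centred at -66, -60 and -10 relative to the nearest TSS, and Marveld3 held 3, at -53, -7 and 28. In Cldn7 they lay at -69 and -29, and the other genes held a copy each (9 in Ocln, 45 in Marveld2, -93 in F11r, -102 in Epcam and -294 in Cldn23). Among 43 other junction genes with a promoter site, 12 (27.9%) held the E-box, among them the cadherin gene Cdh3, the desmosome genes Dsp, Dsg2 and Pkp3 and the polarity gene Crb3. No test of enrichment was made, and the letters do not show which factor, if any, was bound.

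The promoters of Cdh1 and Marveld3 are printed because they hold the most copies, and that of F11r because it holds an E-box beside AP-1. Capitals mark E-boxes on either strand and, in F11r, also AP-1. The Marveld3 copy at 28 lies in an exon and is not shown. They cover the non-exonic part of the site: chr8:106603256-106603350 on the plus strand for Cdh1, chr8:109962204-109962285 on the minus strand for Marveld3 and chr1:171437396-171437534 on the plus strand for F11r.
Cdh1: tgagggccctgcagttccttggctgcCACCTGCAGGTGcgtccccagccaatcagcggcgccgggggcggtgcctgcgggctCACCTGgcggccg
Marveld3: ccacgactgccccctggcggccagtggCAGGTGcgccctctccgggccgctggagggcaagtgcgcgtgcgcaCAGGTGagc
F11r: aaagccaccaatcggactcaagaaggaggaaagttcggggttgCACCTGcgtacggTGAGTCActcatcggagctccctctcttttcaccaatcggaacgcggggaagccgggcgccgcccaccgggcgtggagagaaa
In Cdh1 a pair of E-boxes abuts as CACCTGCAGGTG, and the remaining copy stands just before the TSS.

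The other motifs were in fewer members. AP-1 letters were in 4 of 26 (15.4%; Cldn4, Cldn10, Epcam and F11r), where the share over all genes was 3.1%. That share was 7.35%, 3.23% and 1.74% in the low, middle and high CpG classes. Of the other junction genes with a promoter site, 2 of 43 (4.65%) held AP-1 letters. The GRHL letters (AACNNGTT), named for the grainyhead-like factors of epithelia, were in 2 of 26, Cldn5 and Cgn. They were in 1.4% of all genes and in 0 of 43 other junction genes. NKX2 letters were in 2 of 26, Cldn3 and Cldn8, with 3.73% over all genes and 2.33% over the other junction genes. SP/KLF letters were in 7 of 26 (26.9%) and ETS letters (CCGGAAG) in 1 of 26, below the 38.3% and 13.1% of all genes. The other junction genes did not share this, with SP/KLF letters in 25 of 43 (58.1%) and ETS letters in 6 of 43 (14%). Over all genes the SP/KLF share was 21.2%, 32.9% and 48.2% in the low, middle and high CpG classes. The FOX letters (TGTTTAC) were in 0 of 26, where the share over all genes was 1.24%, and the GATA, TATA-box and CTCF motifs were also in 0 of 26 (1.76%, 2.32% and 0.772% over all genes).

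**Figure D3:**
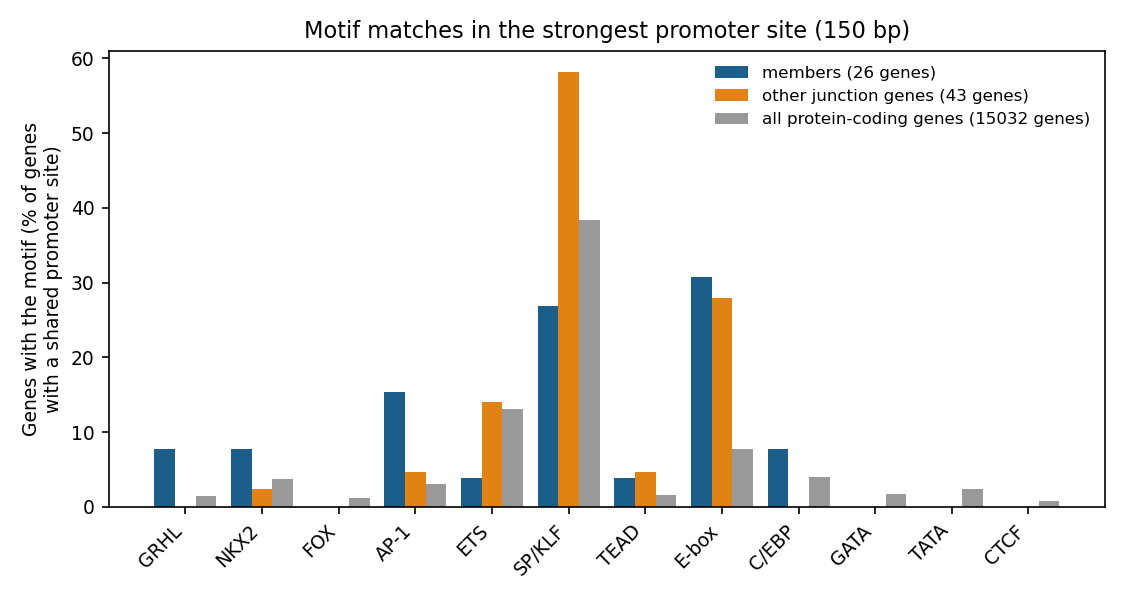
Share of genes, in percent of those with a shared promoter site, whose strongest site holds each of 12 motifs on either strand, for the 26 members, 43 other junction genes and 15032 protein-coding genes. The E-box bars stand at 30.8%, 27.9% and 7.78%. The SP/KLF bar of the members (26.9%) is below that of all genes (38.3%), and that of the other junction genes (58.1%) is above it.

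The GRHL matches are shown in place because Cldn5 is endothelial and Cgn epithelial. Capitals mark GRHL letters and, in Cgn, SP/KLF letters. The stretches are chr16:18776676-18776845 on the plus strand for Cldn5 and chr3:94786493-94786625 on the minus strand for Cgn.
Cldn5: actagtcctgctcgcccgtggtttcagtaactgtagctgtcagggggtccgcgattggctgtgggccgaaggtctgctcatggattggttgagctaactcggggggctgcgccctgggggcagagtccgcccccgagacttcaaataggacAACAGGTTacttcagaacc
Cgn: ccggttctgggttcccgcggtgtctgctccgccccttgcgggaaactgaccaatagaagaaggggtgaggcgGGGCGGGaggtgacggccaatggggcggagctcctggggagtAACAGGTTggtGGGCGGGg
In both genes the match falls in the last part of the stretch, on the side of the TSS.

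Hotspots, the broader intervals deposited beside the peaks, called the same 26 members accessible. At 22 of them a promoter hotspot reached 100, the upper limit of the deposited −log10 q-value, in both libraries, which 86.4% of all genes with a shared promoter site also did. Cldn23 had the widest promoter hotspot in replicate 1, 2079 bp, and 1162 bp in replicate 2. Ocln spanned 1624 bp in replicate 1 but 442 bp in replicate 2, and Esam 1666 and 480 bp. The lowest values were at Cldn22, with −log10 q of 4.48 and 1.71. Cldn5, Jam2 and Cldn8 fell short of the limit in replicate 2 alone, at 3.28, 4.21 and 5.1.

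Beyond the promoters, each of the 33 members had at least 1 shared distal site within 50 kb, which 89% of all protein-coding genes had. The number per member ranged from 3 to 35 with a median of 9, and the median over all genes was 8. Per 100 kb of window the medians were 7.04 and 5.96. Of the members, 17 had more than the median of all genes and 14 had fewer. Tjp1 led with 35, of which 30 lay inside its 232 kb gene, followed by Cdh1 with 25, Cldn3 and Cldn4 with 20 each, Cldn10 and F11r with 19, Cldn18 with 15 and Marveld3 with 14. The fewest were at Cldn17 (3) and Cldn1 (4). Per 100 kb of window the order differed: Cldn3 had 19.8, Cldn4 19.6, Cdh1 and F11r 15 each, and Tjp1 10.6 in its window of 332 kb. Cldn19 (9) and Cldn2 (8), with no promoter peak, had more distal sites than Cldn7 (5) or Esam (6). This order held for distal sites only, a class that leaves out sites close to the TSS of any gene. Of shared sites of any class, Cldn7 had 29 and Esam 18, against 16 at Cldn19 and 8 at Cldn2. The windows held 12 protein-coding genes for Cldn7, 5 for Esam, 6 for Cldn19 and 4 for Cldn2.

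**Figure D4:**
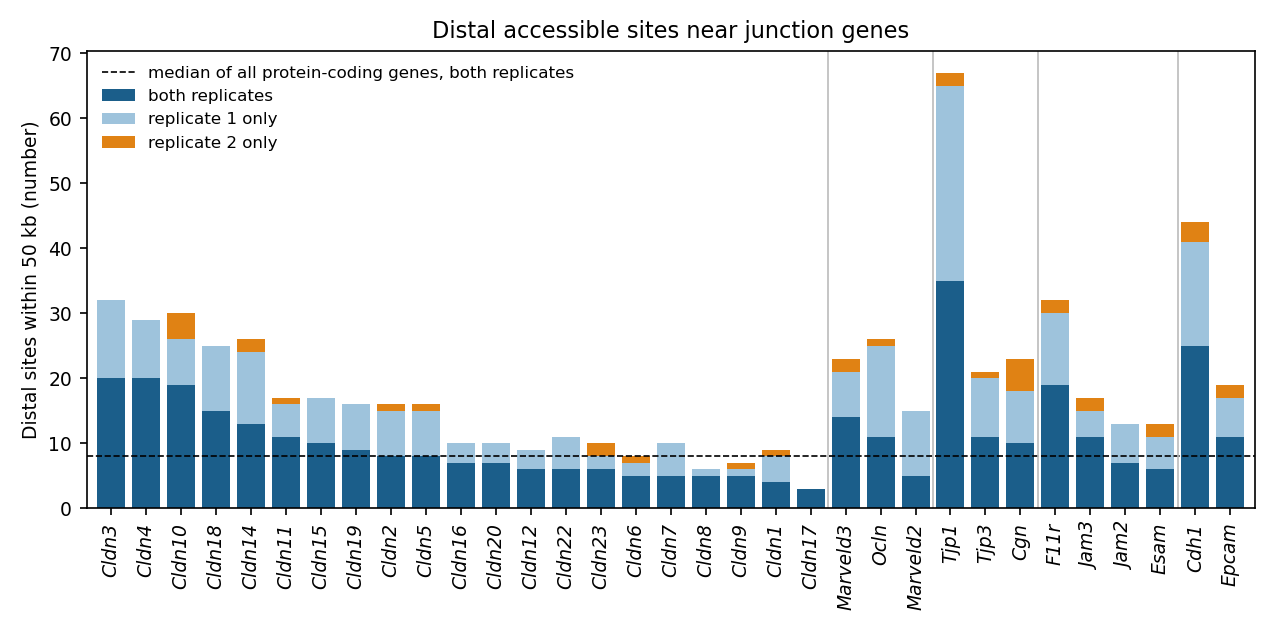
Number of distal sites within 50 kb of each member, found in both replicates or in 1 of them, grouped by role in the order claudins, occludin family, scaffolds, JAM family and adhesion. Tjp1 (35 shared), Cdh1 (25), Cldn3 and Cldn4 (20 each) stand highest, and the dashed line is the median of 8 over all protein-coding genes.

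Neighbouring members shared part of their sites. Of the 20 distal sites near Cldn3 and the 20 near Cldn4, 16 (80% of each) were the same, and 10 of them lay between the genes. Those 10 scored 14 to 120 in replicate 1 and 10 to 101 in replicate 2. The strongest stood almost midway, 19.6 kb from either TSS (chr5:134966496-134966665). Its plus-strand sequence is given because it is the strongest distal site of both genes by mean percentile, with the NKX2 match in capitals.
Cldn3 and Cldn4 distal: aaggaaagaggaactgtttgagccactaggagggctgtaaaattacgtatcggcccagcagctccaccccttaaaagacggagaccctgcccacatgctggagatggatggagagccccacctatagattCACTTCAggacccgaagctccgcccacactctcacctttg
Cldn6 and Cldn9 had 4 of 5 sites in common and Ocln and Marveld2 had 4, which were 36.4% of the 11 near Ocln and 80% of the 5 near Marveld2. Cldn8 and Cldn17 had 2 in common (40% and 66.7%), and Cldn1 and Cldn16, 91.3 kb apart, had none. Distances do not show which gene a site serves.

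**Figure D5:**
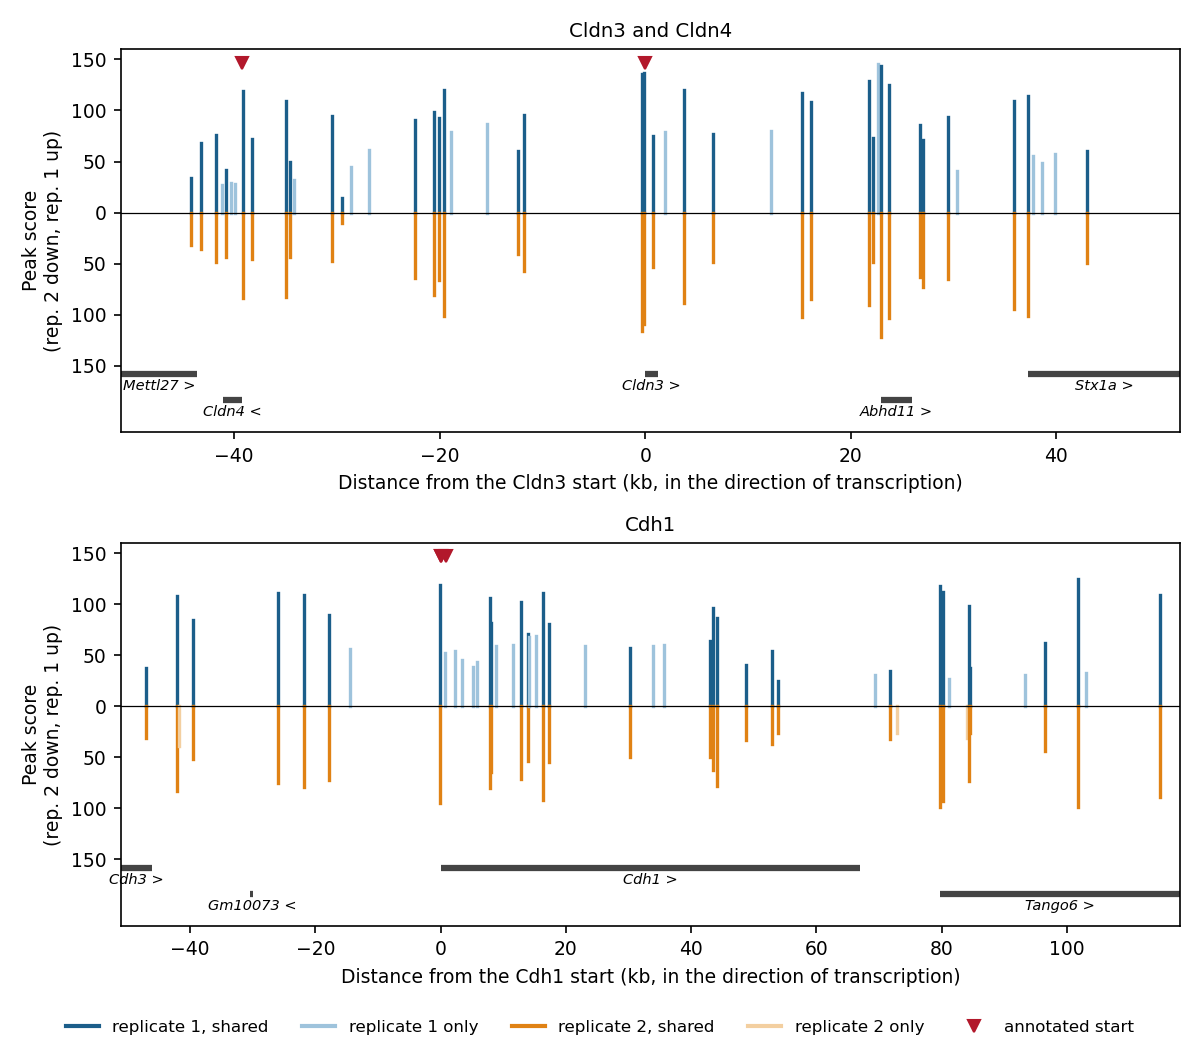
Peak scores (no unit given) around Cldn3 with Cldn4 and around Cdh1 against distance in kb from the Cldn3 or Cdh1 start, drawn as replicate 1 upward and replicate 2 downward. Between the 2 claudin genes lie 10 shared distal sites, and the Cdh1 promoter (119 and 95) is followed by sites along the gene.

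Inside Cdh1 there were 13 shared distal sites, with a median score of 81 in replicate 1 and 54 in replicate 2. The highest, 16.4 kb from the TSS, scored 111 and 92. The strongest site in reach of Cdh1 (125 and 99) lay 102 kb downstream of its TSS, in an exon of Tango6.

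By mean percentile, the strongest distal site near the members was 36.8 kb upstream of Jam3 (chr9:27192096-27192265), with 124 in replicate 1 and 112 in replicate 2. Next came a site near Cldn6 and Cldn9 with 129 and 105, although neither gene had a shared promoter site. A Tjp1 intron site 58 kb from the 5′ end scored 122 and 107, and a site 94.8 kb from the 5′ end of Cldn14 scored 130 and 96, its nearest TSS being that of Chaf1b. The sixth was 40.6 kb downstream of the F11r 5′ end, with 120 and 102. All but the F11r site scored above the shared promoter sites of the member near them, where it had any, in both libraries. The Tjp1 site (chr7:65469736-65469905, minus strand) is printed because it lies within a member and holds AP-1, TEAD (GGAATGT) and E-box letters, in capitals.
Tjp1 intron: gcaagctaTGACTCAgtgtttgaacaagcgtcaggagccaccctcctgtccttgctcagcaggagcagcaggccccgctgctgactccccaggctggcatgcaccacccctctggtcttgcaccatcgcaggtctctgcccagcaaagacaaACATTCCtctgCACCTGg
Among the 331 distinct distal sites near the members, 26 lay within reach of 2 or more of them.

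All shared sites within 50 kb of the members numbered 532. Promoter sites made up 29.7% of them, against 18.6% of all shared sites, exonic sites 8.08% against 5.16%, intronic sites 34.2% against 43.2% and intergenic sites 28% against 33%. Windows around genes hold starts by construction. Median scores near the members were 77 and 56, against 67 and 46 for all shared sites. Motifs were counted in the same way in the 331 distal sites near the members and in the 120862 distal sites genome-wide. NKX2 letters were in 10.9% near the members and 12.4% genome-wide, and AP-1 letters in 12.4% and 10.3%. The E-box was in 13.3% and 9.22%, and the CTCF motif in 6.95% and 4.91%. The CTCF consensus can itself contain CAGGTG.

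Replicate 1 gave the higher score at nearly all sites. Of the 53 shared promoter sites, 50 scored higher in replicate 1, 2 higher in replicate 2 and 1 equal. The log2 ratio of replicate 1 to replicate 2 at the strongest site had a median of 0.30 over the members and 0.24 over all genes with a promoter site, with 0.11 and 0.55 as the 10th and 90th percentiles. It was highest at Cldn5 (0.88) and Jam2 (0.80). Of 878 genes within 5 score points of Cldn5 in replicate 1, 2.96% had a ratio as high, and for Jam2 it was 8.33% of 816. Cldn4 had 0.50, reached by 3.52% of 2417 such genes. Over the 26 accessible members this share ran from the 2.96% of Cldn5 to 93.5% at Cldn11. It was also low at Cldn12 (4.11%) and Epcam (5.61%). The median ratio was 0.66 over 7 endothelial markers (0.20 to 0.73), 0.41 over 9 lung epithelial markers (0.08 to 0.62) and 0.30 over 5 fibroblast markers (0.03 to 0.49), and the 3 ranges overlapped. The ratio varied with the score, with a median of 0.19 over all genes within 5 points of Cldn12 and 0.40 over those within 5 points of Cldn5. Taken in the same way around each marker, all genes had a typical ratio of 0.42 for the endothelial, 0.33 for the epithelial and 0.26 for the fibroblast list (the median over the list of those medians). Esam, likewise endothelial, had 0.21. Whether cell makeup had a part in the ratio of Cldn5 was not tested.

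A wider list of 49 other junction genes gave 43 (87.8%) with a shared promoter site, against 68.5% of all protein-coding genes. The list was richer in CpG, with a median of 64 per gene against 41 over all protein-coding genes. Over all genes the share with a site rose from 27.3% in the low to 96.7% in the high CpG class. The 2 shares are therefore not matched for CpG number. The highest were Pals1 (listed as Mpp5), a polarity scaffold, with 144 and 135, Jup, the plakoglobin gene, with 145 and 132, Magi3 with 142 and 132, and Cldn25 (listed as Cldnd1, a claudin-domain gene) with 141 and 130. These lay above every member in both libraries. Without a shared site were Cldn13, Cldn24, Cldn34a and Cldn34d, with no peak in either library, and Dsc2 and Gjb1, with peaks in replicate 1 alone.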

How the data were processed

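DNase-seq of whole newborn lung was analysed in 2 libraries of 1 group. The authors deposited, per the notes and formats of the files, 150 bp peaks with a score and hotspots with a −log10 q-value for each library on assembly mm10. Aligner and caller are not given in the sources used here, nor is depth, so no value was scaled. Chromosomes 1 to 19, X and Y were kept and exact duplicates (26 and 23 peaks) removed. Overlapping peaks of both libraries were merged into 290376 sites, of which 161051 were shared. Genes and start sites came from GENCODE M21 and sequences from its genome, GRCm38, which mm10 denotes. A promoter was called accessible if a shared site reached within 500 bp of a TSS. A distal site had its centre more than 1000 bp from any TSS and lay within 50 kb of the gene. Percentiles were taken among all peaks of a library. For 12 motifs, the 150 bp centred on a site were searched on both strands.

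The series had 1 group, so conditions could not be compared. No test was made, and all values are descriptions. All members were named. Those described in full were the 8 with the highest percentile of the promoter site, those with partly used starts, the 8 with the most distal sites and the 6 strongest distal sites. Of the other junction genes, the 4 highest and up to 4 without a peak were named. Dsc2, Gjb1 and the E-box carriers were added after their values were seen. The members and lists were chosen with earlier results of these data known. Alternatives covered window, start choice, overlap, score, hotspots and each replicate alone. Merging and promoter calling were tested on simulated data. Python 3.11.15, pandas 2.3.3, numpy 2.4.6 and pysam 0.24.0 were used.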

Additional observations from a re-analysis of the deposited data

How the results depend on the processing

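Over 10 alternatives, the number of members with a shared promoter site stayed between 22 and 28, and the calls of 25 of 33 members did not change. Cldn6 and Cldn9 gained a site with replicate 1 alone. Cldn7, Cldn10, Cldn14 and Cldn18 lost theirs when only the 5′ end of the gene model was used, which left 10 claudins with a site. Cldn8, Cldn14 and Cldn22 lost theirs with peaks above the median score only, and Cldn22 also with a 250 bp window. The median number of distal sites per member was 5 within 20 kb, 15 within 100 kb and 5 with peaks above the median score, and 9 to 16 with either replicate left out. The distinct shared sites of any class near the members, 532 within 50 kb, numbered 335 within 20 kb, 850 within 100 kb and 602 to 835 with either replicate left out. No paired analysis was possible because the series has 1 group and no comparison between conditions. Depth was not given, and its part in the peaks listed by replicate 1 alone was not tested.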
